A study of Mus musculus with 11 samples.

Results

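Among 11 B cell lymphomas of E-mu-BRD2 mice, 4 were rich in transcripts of granulocyte precursors. They were chosen by a measured value, the array signal of Ctsg, which encodes the primary granule protease cathepsin G. The 4 arrays with a Ctsg signal above 2000 are called bright here and the other 7, all below 500, dim. Nearest the limits were marginal 3, with a Ctsg signal of 5850 inside, and marginal 2, with 472 outside.

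All the mice carried the E-mu-BRD2 transgene on the FVB background. It places BRD2, a BET bromodomain protein that binds acetylated histones, under the immunoglobulin heavy chain enhancer, which is active in B cells. Each array held RNA of 1 lymphoma, 6 of the class marginal and 5 of the class transitional, which the study set by disease severity, and all 11 were recorded as oligoclonal for immunoglobulin. The bright arrays were marginal 1 and 3 and transitional 4 and 5, and the dim arrays were marginal 2, 4, 5 and 6 and transitional 1, 2 and 3. Normal B cells, resting or activated, and the other severity class of the design were not analysed here. Age, animal numbers and the tissue sampled are not given in the sources used here, so p-values measure only the spread between these samples, which may be technical. B cell transcripts were present on every array: signal of Ms4a1, which encodes CD20, ran from 2812 on transitional 5 to 24757 on transitional 3.

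Granulocytes arise in the bone marrow, and in the mouse also in the spleen, from myeloid progenitors that pass through a promyelocyte stage. Promyelocytes make the proteases and myeloperoxidase of the primary granules and then shut these genes off, while myelocytes make the secondary granule proteins and later cells the tertiary granules and the receptors of the mature neutrophil. The transcripts of primary granules therefore mark precursors, whereas a mature neutrophil stores the proteins with little of their RNA. Array signals are linear intensities on the MAS5 scale. Each difference is the bright minus the dim mean of log2(signal + 16). The added 16 makes the differences of weak probe sets too small, and the number of arrays limits their precision.

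Genes of the promyelocyte were high together on the 4 bright arrays. Ctsg signal was 11381 on marginal 1, 5850 on marginal 3, 6318 on transitional 4 and 9630 on transitional 5, against 6.7 to 472 with a median of 58.3 on the dim arrays. Prtn3, which encodes proteinase 3, gave 14176, 5872, 5885 and 7789 on the same 4 arrays in that order, and 47.1 to 601.1 with a median of 153.9 on the dim ones. Every bright array lay above every dim array for both genes, and marginal 1 was the highest and marginal 2 the highest of the dim set.

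Elane, the gene of neutrophil elastase, had signals of 15308, 5198, 6787 and 6659 on marginal 1, marginal 3, transitional 4 and transitional 5, and of 49.3 to 735.6 (median 157.1) on the dim arrays. Mpo, which encodes myeloperoxidase, gave 21288, 10122, 10713 and 12950 against 47.2 to 1410 (median 174.1). Ms4a3, a membrane protein of granulocyte and monocyte progenitors, gave 8900, 3050, 3765 and 3846 against 23.2 to 324.9 (median 103.1). Groups did not overlap for any of the 3, and marginal 2 again led the dim arrays. Their differences were 5.42 for Elane, 5.69 for Mpo and 5.16 for Ms4a3, beside 5.53 for Prtn3. They were large in both classes and wider in the transitional one. Within marginal lymphomas they were 5.07 for Elane, 5.09 for Mpo and 5.02 for Ms4a3. Within transitional lymphomas they were 5.95, 6.55 and 5.41 in the same order.

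The other members of this list varied more. Trem3, a myeloid receptor that signals through DAP12, had signals of 1713, 609.5, 734.5 and 296.5 on marginal 1, marginal 3, transitional 4 and transitional 5 and of at most 172.6 on the dim arrays. Gfi1, a repressor needed for neutrophil differentiation, stood at 482 on marginal 1 and from 144 to 169.5 on the other bright arrays, within the dim range of 9 to 213.4. Serpinb1a, an inhibitor of neutrophil serine proteases, ran from 1811 to 7758 on the bright and from 575.8 to 5976 on the dim arrays. Of 11 genes on the list, 8 were on the array and 6 had all bright above all dim signals, where 6.64% of all 13575 probe sets tested did. These genes are of the kind that set the groups, so nothing is read from that share and no test is given for them or for later granulocyte genes. The markers of the label, Ctsg, Prtn3 and Ms4a3, were all high on the bright arrays, each by 1 probe set.

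**Figure D1:**
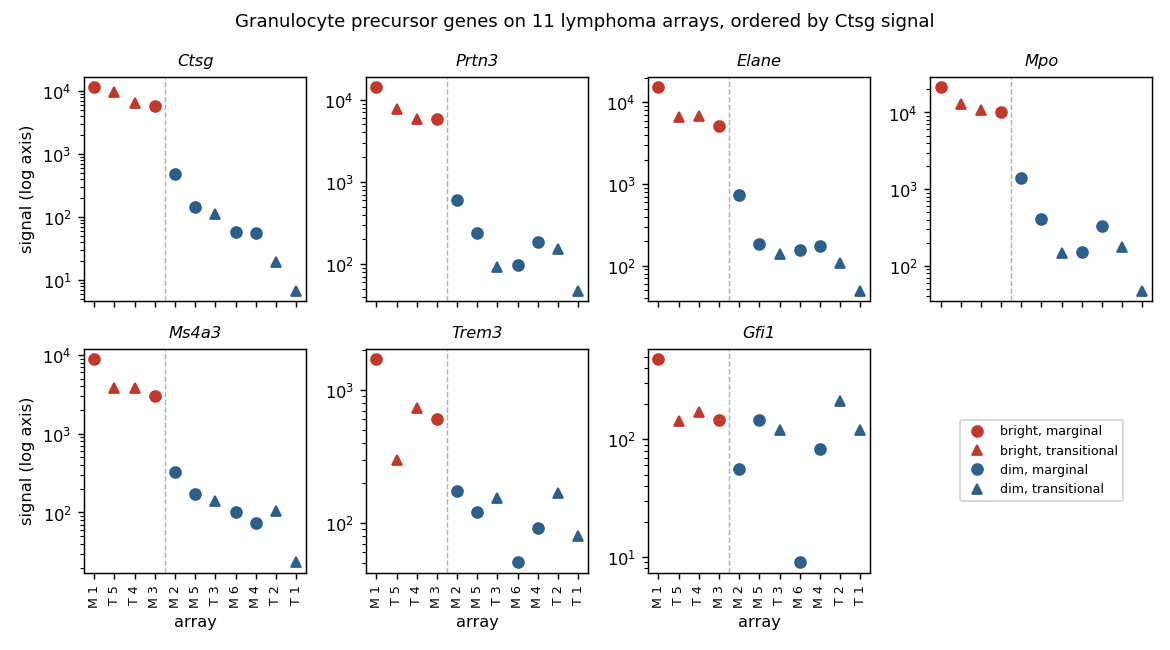
Signal (log axis) of 7 granulocyte precursor genes on each of the 11 arrays, ordered from left to right by Ctsg signal; red marks the 4 bright and blue the 7 dim arrays, circles marginal (M) and triangles transitional (T) lymphomas. Ctsg, Prtn3, Elane, Mpo, Ms4a3 and Trem3 are higher on each bright than on each dim array, while the bright arrays other than marginal 1 lie within the dim range for Gfi1.

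The promoters of the 5 leading genes are shown because their transcripts moved together across the arrays. Each line gives the 250 bases before the RefSeq transcription start (GRCm38.p6), 5′ to 3′ on the gene's strand, with matches to 3 motifs in capitals. The motifs, searched on both strands, were GGAAGT as a core of ETS factors such as PU.1, AACGG as a core of Myb, and TTNNGNAA as a C/EBP motif, where N is any base. The windows are chr14:56102575-56102824 on the minus strand for Ctsg, chr10:79879417-79879666 on the plus strand for Prtn3, chr10:79886062-79886311 on the plus strand for Elane, chr11:87793534-87793783 on the plus strand for Mpo and chr19:11640852-11641101 on the minus strand for Ms4a3.
Ctsg promoter: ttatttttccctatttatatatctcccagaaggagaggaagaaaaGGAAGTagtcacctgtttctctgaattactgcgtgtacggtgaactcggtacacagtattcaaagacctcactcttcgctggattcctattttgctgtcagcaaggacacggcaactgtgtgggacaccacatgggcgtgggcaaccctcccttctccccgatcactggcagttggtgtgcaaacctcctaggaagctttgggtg
Prtn3 promoter: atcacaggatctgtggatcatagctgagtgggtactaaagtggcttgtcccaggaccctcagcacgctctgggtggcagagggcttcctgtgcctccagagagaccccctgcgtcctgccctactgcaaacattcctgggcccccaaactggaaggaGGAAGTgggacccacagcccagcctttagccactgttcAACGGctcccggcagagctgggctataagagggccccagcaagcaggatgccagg
Elane promoter: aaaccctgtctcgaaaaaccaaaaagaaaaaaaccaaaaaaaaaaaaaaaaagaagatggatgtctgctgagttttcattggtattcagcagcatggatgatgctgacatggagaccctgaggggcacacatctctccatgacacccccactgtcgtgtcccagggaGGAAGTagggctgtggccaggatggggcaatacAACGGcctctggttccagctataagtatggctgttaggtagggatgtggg
Mpo promoter: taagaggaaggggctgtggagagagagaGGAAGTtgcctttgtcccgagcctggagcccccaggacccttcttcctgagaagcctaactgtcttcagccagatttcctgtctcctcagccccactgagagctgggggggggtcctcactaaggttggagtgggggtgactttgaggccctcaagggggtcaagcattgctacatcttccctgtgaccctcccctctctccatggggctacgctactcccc
Ms4a3 promoter: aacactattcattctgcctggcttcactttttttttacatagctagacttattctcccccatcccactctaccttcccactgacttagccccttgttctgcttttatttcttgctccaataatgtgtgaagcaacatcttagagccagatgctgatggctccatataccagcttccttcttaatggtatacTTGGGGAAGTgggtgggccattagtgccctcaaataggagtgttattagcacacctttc

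GGAAGT or its complement stood in all 5 of these windows, and in 6 of the 7 list genes with a window in the table. Of 27025 gene promoters of that length, 19.9% held it. AACGG stood in 2 of the 7, Prtn3 and Elane, and in 14.8% of all promoters. TTNNGNAA stood in 3 of the 7 and in 37% of all promoters. In Ms4a3 its match overlaps that of GGAAGT and the capitals run across both. Prtn3 and Elane lie 3137 bases apart on chromosome 10 and are expressed from the same strand. A match is a description of the letters and not a measured binding site.

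Later granule genes were high on 3 of the 4 bright arrays and much lower on transitional 5. Ltf, which encodes the secondary granule protein lactoferrin, had signals of 21205 on marginal 1, 9599 on marginal 3 and 14332 on transitional 4, but 1872 on transitional 5, below the 2913 of dim marginal 2. The other dim arrays ran from 174.3 to 712 for Ltf. Cd177, a surface protein of neutrophils, followed the same order, with 8609, 2186, 5193 and 495.9 against a highest dim signal of 551.9, and had the widest difference of its list, 4.09. Chil3, a chitinase-like secreted protein, gave 14397, 11745, 16292 and 4460 against 212.3 to 2563. Hp, which encodes haptoglobin, gave 10242, 4706, 7469 and 2750 against 46.8 to 1374. For Chil3 and Hp the groups did not overlap, and transitional 5 was the lowest bright array for all 4 genes.

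Camp and Ngp are secondary granule genes that were added after their values were seen. Camp, the gene of the cathelicidin peptide, had signals of 25584, 18459, 21185 and 4621 on marginal 1, marginal 3, transitional 4 and transitional 5, and of 7981 on dim marginal 2. Ngp, the neutrophilic granule protein, gave 30934, 25287, 28033 and 7576, and 9481 on marginal 2. Padi4, the arginine deiminase of neutrophil extracellular traps and likewise chosen from its values, gave 676.5, 188.8, 329.4 and 31.1 against 15.6 to 67. Of 14 genes on the list of secondary and tertiary granules, 13 were on the array, all 13 had a higher mean on bright arrays, and 3 had all bright above all dim signals. The median difference over these 13 was 3.23, against 5.29 over the 8 precursor genes. Its list score, the mean log2 deviation of the members from their 11-array means, was 3.17 on marginal 1, 2.64 on transitional 4 and 1.91 on marginal 3. On transitional 5 it was 0.185, below the 0.271 of dim marginal 2, although the precursor score of transitional 5 (2.19) was close to that of marginal 3 (2.26) and transitional 4 (2.42).

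Mature neutrophil genes separated the groups least of the 3 granulocyte lists, with a median difference of 1.75 over the 12 on the array. Stfa3, a stefin of neutrophils, had signals of 1701, 420.4, 4699 and 211.2 on marginal 1, marginal 3, transitional 4 and transitional 5, and 779.8 on dim transitional 2, with 4.2 to 136.9 on the other dim arrays. Trem1, an activating receptor of neutrophils and monocytes, gave 501.6, 67.2, 113.4 and 416.3 against 2.8 to 26.2, without overlap, but its mean was under the filter on low signals. Fpr2, a receptor for formyl peptides, gave 5037, 2668, 4264 and 952.3 against 145 to 1305. Clec4e, the lectin receptor Mincle, stood between 347.1 and 738.1 on the bright arrays and reached 1121 on transitional 2. Cxcr2, the chemokine receptor that calls neutrophils out of the marrow, was chosen after its values were seen: its signal was 1190, 479.5 and 431.1 on marginal 1, marginal 3 and transitional 4 and 12.4 on transitional 5, against 5.9 to 228.3. S100a8, a calcium-binding protein that fills the neutrophil cytosol, was also chosen so, and stood at 21489 to 35663 on bright and 3125 to 26064 on dim arrays. All 12 genes had a higher mean on bright arrays and 1, Trem1, did not overlap. Trem1 and Clec4e (625.3) were higher on transitional 5 than on marginal 3 and transitional 4. The list score was 2.32 on marginal 1, 1.33 on transitional 4, 1.13 on marginal 3 and 0.579 on transitional 5. On dim arrays it ran from −1.88 to 0.412.

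**Figure D2:**
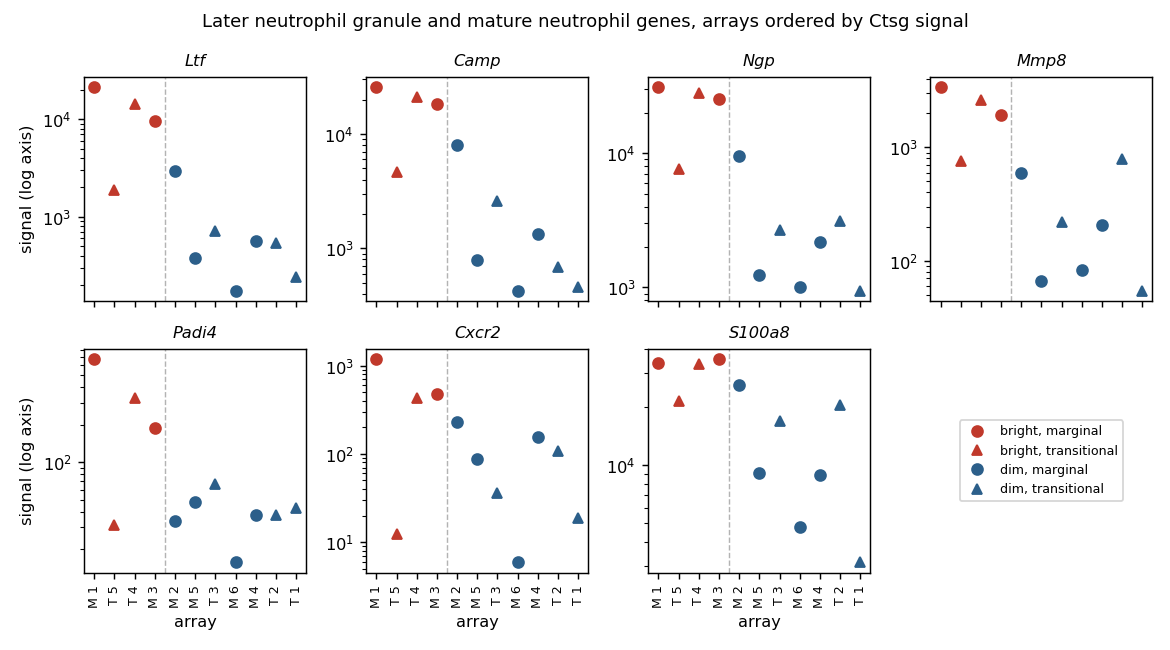
Signal (log axis) of Ltf, Camp, Ngp, Mmp8, Padi4, Cxcr2 and S100a8 on the 11 arrays, in the order of the Ctsg signal; red marks bright and blue dim arrays, circles marginal and triangles transitional lymphomas. Transitional 5, second from the left, lies below the other bright arrays in each panel. It also lies within the dim range in each, with Padi4 at 31.1 and Cxcr2 at 12.4. Camp, Ngp, Padi4, Cxcr2 and S100a8 were chosen after their values were seen. The mature neutrophil genes Trem1 and Clec4e, not shown, were higher on transitional 5 than on marginal 3 and transitional 4.

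No class, clinical sign or spleen grade was common to all 4 bright lymphomas. The marginal class gave 2 of the 4 bright and 4 of the 7 dim arrays. Clinical notes gave failure to nest for 3 of 4 bright and 4 of 7 dim arrays, and a neck tumor for the remaining bright one, marginal 1. Splenomegaly was recorded as moderately severe for both transitional bright arrays, mild for marginal 3, and of the lowest grade, also named marginal, for marginal 1. For the dim arrays it was mild in 3, moderate in 2 and severe in 2 cases. Within the transitional class the bright arrays were exactly those with moderately severe spleens, so grade and Ctsg level cannot be told apart there. Flow cytometry was recorded for marginal 6 alone, as B220+, CD5+ and CD11b+. The array signal of Itgam, the gene of CD11b, was lower on marginal 6 than on any other array, at 59.6. It was 266.7 to 1947 on the bright arrays, with a bright minus dim difference of 1.92 (SE 0.57). Flow cytometry measures protein on cells and the array RNA of the sample, so these are unlike measures. Itgam is a myeloid gene, so no test is given for it.

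Across all probe sets other than that of Ctsg, 1555 of the 13575 tested (11.5%) were higher on bright arrays and 2051 (15.1%) lower, at a limma adjusted p of 0.05. Because the groups were formed from a transcript of the same RNA, such a p says how closely another transcript follows the cut in these arrays, not that a separate condition was tested. This covers myeloid genes outside the granulocyte lists, such as Clec5a, Cebpd and F13a1. Their p-values below cannot be read apart from the granulocyte transcripts. Another scaling moved the balance: 43.1% of calls were higher with the deposited values, 52.1% after quantile normalization and 59.2% after median scaling. The median difference of all probe sets was −0.15, −0.06 and 0.005 in the same order. Array medians were lowest on transitional 5 (99.7) and transitional 4 (108.6) and ran from 120 to 151.9 on the other 9 arrays, while the 2% trimmed mean was 500.2 on every array. Groups did not overlap for 902 probe sets with all bright signals above (6.64%) and 909 with all below (6.70%).

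The direction was the same in both classes for all 1555 higher and all 2051 lower calls. These calls were picked by the pooled difference over the same arrays, which favours such agreement, so nothing is read from it. Far more probe sets passed within the transitional class. Within transitional lymphomas 1596 probe sets were higher (11.8%) and 2405 lower (17.7%), whereas within marginal lymphomas 6 were higher (0.0442%) and 2 lower (0.0147%), with 2149 at an unadjusted p under 0.05. Those 8 calls became 213 without marginal 2, 18 without marginal 3, 2 without marginal 6 and 0 without marginal 1, 4 or 5 (759, 1998 and 1859 at an unadjusted p under 0.05 in limma). When both transitional bright arrays were left out, which was decided once values had been seen, 15 probe sets passed and 2424 had an unadjusted p under 0.05. Leaving out 1 array lowered the counts most without transitional 4 (809 higher and 647 lower) and without transitional 5 (967 and 807). With the score of erythroid genes, defined below, as a term of the fit, 0 probe sets passed in limma, with 1376 at an unadjusted p under 0.05. That score was itself higher on every bright than on every dim array, so the fit can hardly separate it from the cut. Nothing is concluded from the lost calls or from the list medians with that term, which follow. The median difference was −1.88 for B cell identity genes (−1.73 without the term), −1.35 for class II genes (−1.61) and 1.82 for immediate early genes (1.28). It was smaller for mitosis genes, at 0.965 (1.55), and for DNA replication genes, at 0.734 (1.25). Natural killer and cytotoxic genes had −0.311 (−1.47) and T cell genes 0.06 (−1.81), while plasma cell genes turned from −0.338 to 1.08. The difference between classes passed for 0 probe sets in the higher direction (0.00%) and 1 in the lower (0.00737%), with 2195 at an unadjusted p under 0.05. That probe set belongs to Creld2, a chaperone-like protein of the endoplasmic reticulum, with a difference of 1.17 in marginal and −2.38 in transitional lymphomas (difference between them −3.56, adjusted p = 0.0488). No probe set passed that test in 8 of the 11 settings that left out 1 array, namely marginal 2, 3, 5 or 6 or transitional 1, 2, 4 or 5. Of the calls over all probe sets, 107 higher and 188 lower ones had their low group under the filter on low signals, so they were tested only because of the group where they are high. Without the filter 91 and 121 of these still passed.

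**Figure D3:**
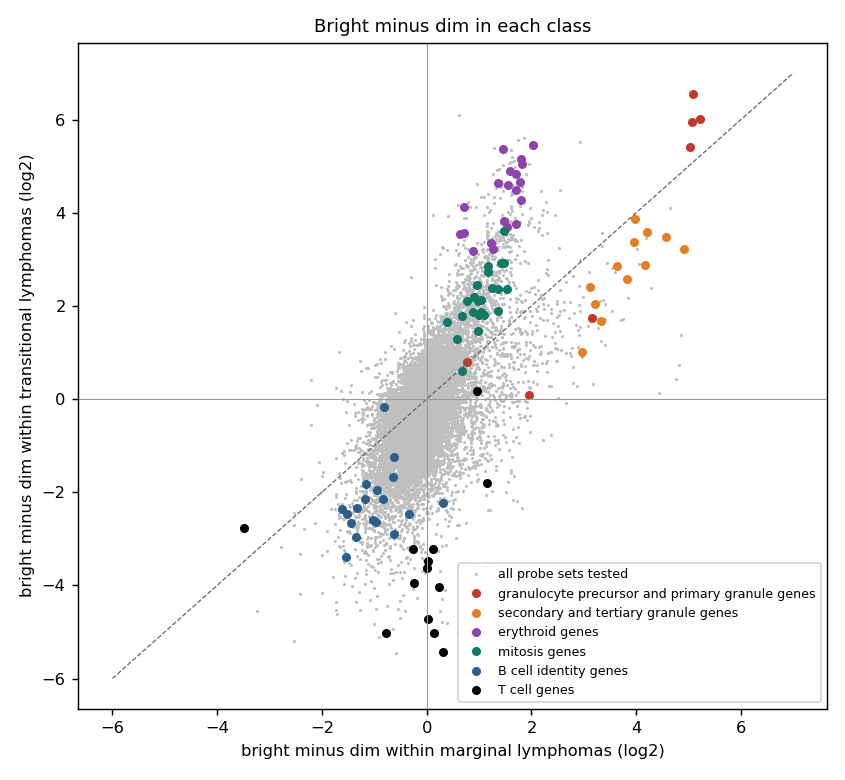
Bright minus dim difference (log2) within marginal (x axis) and within transitional lymphomas (y axis) for each of the 13575 tested probe sets (grey), with tested members of 6 gene lists in colour; the dashed line marks equal differences. Granulocyte precursor genes lie at 5 and above on both axes apart from Trem3, Gfi1 and Serpinb1a, erythroid genes lie higher on the transitional axis (median 4.27) than on the marginal one (1.53), and T cell genes have medians of 0.03 on the marginal and −3.63 on the transitional axis.

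Counts below are of list members, each by its brightest probe set, read against those shares. Over the 21 lists other than granulocytes, 245 genes were tested, of which 83 were higher and 36 lower. In limma 0 of these genes passed among marginal arrays alone, where 5 of all probe sets passed and 1736 had an unadjusted p under 0.05. Again 0 passed when transitional 4 and 5 were left out, and 0 with an erythroid score term, beside the counts over all probe sets given above. Without transitional 4 and 5 all 23 mitosis and all 8 class II genes had the same direction, with medians of 1.16 and −0.90. Among B cell identity genes 16 of 18 were lower, with a median of −0.73 against −1.73 on all arrays. T cell genes had 11 of 13 lower (−0.57 against −1.81) and heat shock genes 7 of 12 higher (0.23 against 0.68). Genes of a list were measured on the same few arrays, so nothing is read from a shared direction. A smaller share of cells of a type and less of its RNA per cell cannot be told apart in these bulk samples.

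**Figure D4:**
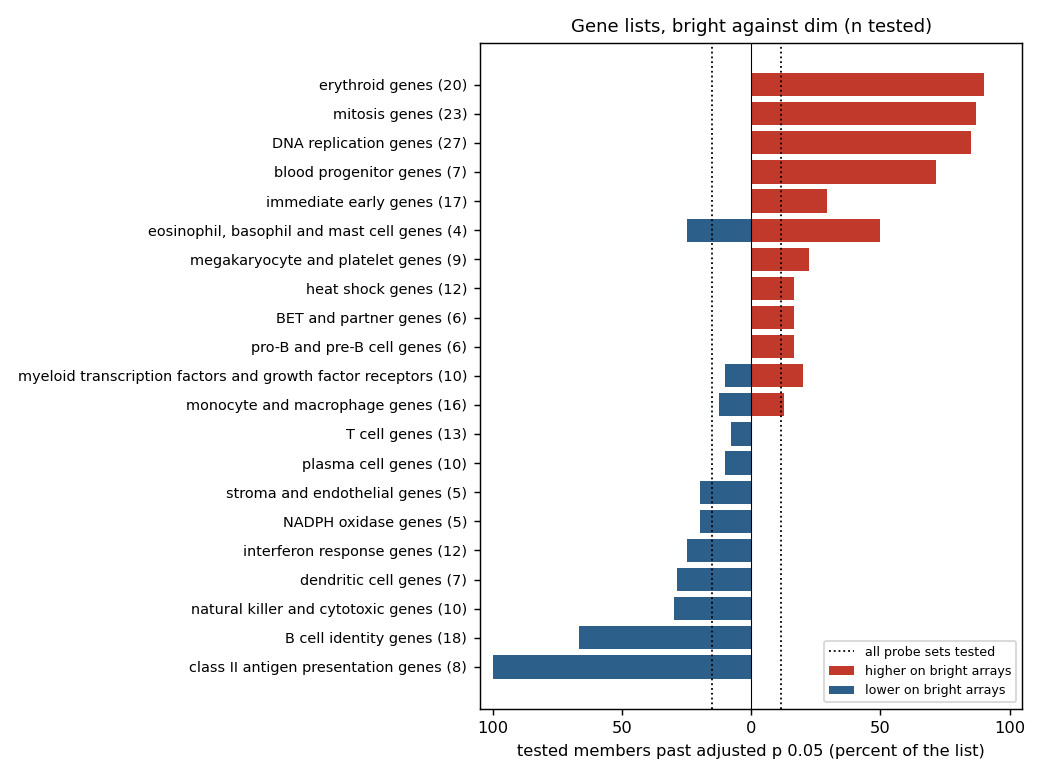
Percent of the tested members of 21 gene lists that passed limma's test between bright and dim arrays (adjusted p 0.05), higher to the right in red and lower to the left in blue, with the number tested after each name; dotted lines mark the same shares over all probe sets, 11.5% higher and 15.1% lower. Erythroid, mitosis and DNA replication genes extend farthest to the right and class II and B cell identity genes farthest to the left.

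Of 10 tested myeloid transcription factors and growth factor receptors, 2 were higher and 1 lower, shares close to those of all probe sets. Irf8, a factor of monocytes, dendritic cells and B cells, was the lower one and was named after its value was seen (difference −1.36, SE 0.44, adjusted p = 0.039). Its call was lost without marginal 2 or 4 or any 1 transitional array. Cebpd, a C/EBP factor of myeloid differentiation, had signals of 2086, 871.6, 784.3 and 574 on marginal 1, marginal 3, transitional 4 and transitional 5 and of 54.9 to 405.6 on dim arrays (difference 2.41, SE 0.49, adjusted p = 0.0060). Cebpb, which drives emergency granulopoiesis, gave 3088, 1092, 1083 and 1596 against 138.9 to 987.4 (1.67, SE 0.46, adjusted p = 0.0197, but 0.0548 without marginal 1 and 0.055 without transitional 5). Cebpd and Cebpb were higher on each bright than on each dim array.

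Of 7 tested blood progenitor genes, 5 were higher, and 3 when transitional 4 was left out. Kit, the stem cell factor receptor, had signals of 542, 188.1, 336.3 and 222.5 against 49.2 to 154.2 (difference 1.59, SE 0.35, adjusted p = 0.0076). Tal1, a factor of progenitors and the erythroid lineage, gave 2599, 2643, 6059 and 4534 against 120 to 1817 (2.90, SE 0.56, adjusted p = 0.0047). Cd34, the progenitor sialomucin, was under the filter with 53.7 to 147.5 on bright and 4.6 to 39.7 on dim arrays. For all 3 genes the groups did not overlap, as for Angpt1 on this list. These made 4 of the 13 list genes on the array, where 6.64% of all probe sets tested had all bright above all dim signals.

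Oxidase subunits, which mature phagocytes and B cells both use, included none that was higher. Of 5 tested NADPH oxidase genes 0 were higher and 1, Cyba, was lower in limma (difference −0.78, SE 0.26, adjusted p = 0.0416). That call was lost without marginal 4, 5 or 6 or without transitional 2, 3, 4 or 5 (adjusted p 0.0511 to 0.141), and the difference was −0.47 without transitional 5. Rac2, a GTPase of the oxidase, differed by −0.93 (SE 0.37, adjusted p = 0.0803, but 0.0273 without marginal 1). The score of this list was 0.562 on marginal 1 and −1.59 on transitional 5, the lowest of all 11 arrays.

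Markers of other myeloid cells were mixed. Prg2, the major basic protein of eosinophils, had signals of 2099, 306.9, 345.5 and 434 on bright arrays and of 27.8 to 613 on dim ones (difference 2.63, SE 0.69, adjusted p = 0.0158). Mcpt8, a basophil protease, gave 654.9, 335.2, 180.1 and 101.2 against 2.6 to 296.3 (2.14, SE 0.65, adjusted p = 0.0301, but 0.0847 without marginal 1, 0.0617 without marginal 3, 0.0653 without transitional 4 and 0.0543 without transitional 3). Mcpt8 passed the filter only through the bright arrays, and its adjusted p without the filter was 0.0442. Il5ra, the interleukin 5 receptor of eosinophils and of some B cells, was lower, at −2.32 (SE 0.61, adjusted p = 0.0163, but 0.0658 without transitional 5 and 0.050 without transitional 4). Epx and Cpa3, the eosinophil peroxidase and mast cell carboxypeptidase, were under the filter, at no more than 200.7 and 102.8 on any array. These made 2 higher and 1 lower of 4 tested genes.

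Of 16 tested monocyte and macrophage genes, 2 were higher and 2 lower, a share near that of all probe sets. F13a1, coagulation factor XIII A of monocytes, had signals of 2381, 1585, 1596 and 2749 against 103.6 to 901.3 (difference 2.83, SE 0.53, adjusted p = 0.0043). Ctss, cathepsin S of antigen-presenting cells, was lower, with 6922, 9031, 4172 and 3765 against 9429 to 15768 (−1.11, SE 0.24, adjusted p = 0.0077). Groups did not overlap for either gene. The macrophage markers Adgre1, which encodes F4/80, and C1qa, of complement, differed by −0.52 (SE 0.41, adjusted p = 0.364) and −0.55 (SE 0.89, adjusted p = 0.67). C1qa reached 8060 on dim transitional 2 and its difference was 0.11 without that array.

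Most genes of red cell precursors were higher on bright arrays. Of 20 tested erythroid genes, 18 were higher on bright arrays and 0 lower, with a median difference of 2.88 against −0.15 for all probe sets. Klf1, the master transcription factor of red cells, had signals of 6257, 8726, 13401 and 12158 on marginal 1, marginal 3, transitional 4 and transitional 5, and of 122.6 to 4454 (median 1260) on dim arrays (difference 3.55, SE 0.72, adjusted p = 0.0060). Gata1, which acts with it, gave 1516, 888.2, 2973 and 2315 against 77.2 to 636.3 (2.95, SE 0.47, adjusted p = 0.0029). Uros, an enzyme of haem synthesis, gave 1407, 1920, 3446 and 4008 against 300.2 to 1016 (2.19, SE 0.35, adjusted p = 0.0029). Each bright array lay above each dim one for these 3 genes, and marginal 2 was the highest dim array for all 3.

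For 18 of the 21 erythroid genes on the array the groups did not overlap, where 6.64% of all probe sets did so. The median difference was 1.53 within marginal and 4.27 within transitional lymphomas. Erythroid scores ran from 1.27 to 2.15 on bright arrays. On the dim marginal arrays they ran from −0.47 to 0.76 and on the dim transitional ones from −3.07 to −1.51. The summed signal of the list was 113501 to 197490 on bright and 5029 to 101308 on dim arrays. Erythroid and granulocyte precursor scores were both higher on every bright than on every dim array. How much of any other difference follows one rather than the other was not tested beyond the erythroid term of the fit, which can hardly separate them.

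Megakaryocyte genes showed less. Of 9 tested, 2 were higher, and leaving out transitional 4 or transitional 5 left 0. Gp9, of the platelet receptor for von Willebrand factor, had signals of 143.9 to 303.7 against 4.5 to 169.5 (difference 1.71, SE 0.56, adjusted p = 0.0404, but 0.0529 to 0.118 without marginal 3, 5 or 6 or transitional 1, 3, 4 or 5). The mean of its dim arrays lay under the filter, and its adjusted p without the filter was 0.0597. Selp, P-selectin, differed by 1.43 (SE 0.46, adjusted p = 0.0362, but 0.0501 to 0.0875 without marginal 1, 3, 4, 5 or 6 or transitional 4 or 5). Pf4, platelet factor 4, and Itga2b, the integrin CD41, differed by 1.15 (SE 0.51, adjusted p = 0.106, but 0.0101 without transitional 2) and 0.38 (SE 0.35, adjusted p = 0.441).

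Genes of cell division were higher on bright arrays. Of 23 tested mitosis genes 20 were higher and 0 lower (median difference 1.55), and of 27 DNA replication genes 23 were higher and 0 lower (median 1.25), or 15 without transitional 4. Cdk1, the mitotic kinase, had signals of 3246, 3463, 5864 and 3961 on marginal 1, marginal 3, transitional 4 and transitional 5 against 746.8 to 1531 (median 977.3) on dim arrays (difference 1.93, SE 0.25, adjusted p = 0.0020). Aurka, a spindle kinase, gave 1670, 1222, 2824 and 2353 against 302.1 to 747.8 (2.12, SE 0.31, adjusted p = 0.0022). Mcm2, of the replicative helicase, gave 3181, 2679, 4573 and 4424 against 897.5 to 1628 (1.46, SE 0.21, adjusted p = 0.0022). Cdc6, which loads that helicase, gave 1960, 1327, 2958 and 3666 against 210.6 to 1096 (2.36, SE 0.39, adjusted p = 0.0033).

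The groups overlapped for none of these 4 genes. Mitosis scores were 1.51 on transitional 4, 1.26 on transitional 5, 0.652 on marginal 1 and 0.583 on marginal 3, against −1.07 to 0.147 on dim arrays. The median mitosis difference was 1.04 within marginal and 2.11 within transitional lymphomas. Erythroid scores moved with it on these arrays. Their part in the result was not tested beyond the erythroid term of the fit, which can hardly be separated from the cut.

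B cell genes were lower on bright arrays. Of 18 tested B cell identity genes 12 were lower and 0 higher, with a median difference of −1.73. Without transitional 4 the count was 7. Cd79b, a signalling chain of the B cell receptor, had signals of 5453, 6925, 2153 and 735.6 on marginal 1, marginal 3, transitional 4 and transitional 5, and of 10446 to 22215 (median 15241) on dim arrays (difference −2.49, SE 0.48, adjusted p = 0.0048). Blk, a kinase of that receptor, gave 1220, 2018, 680.3 and 442.9 against 2196 to 7006 (−2.03, SE 0.40, adjusted p = 0.0050). Cd79a, the partner chain, gave 4149, 7210, 2005 and 910 against 6723 to 16736 (−1.84, SE 0.45, adjusted p = 0.0125, but 0.0529 without transitional 4). Cd79b and Blk did not overlap between groups and Cd79a did, at marginal 3. For 7 of the 18 genes all bright lay below all dim signals, where 6.70% of all probe sets did so.

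The decrease was wider in the transitional class, with a median B cell difference of −2.35 against −0.99 in the marginal class, but no B cell gene passed the test of that difference (smallest adjusted p = 0.11). List scores were −2.10 on transitional 5, −1.85 on transitional 4, −0.262 on marginal 1 and 0.021 on marginal 3, and −0.238 to 1.33 on dim arrays. The lower summed signal, 10411 to 55231 on bright against 65245 to 132709 on dim arrays, still leaves B cell transcripts well present on all bright arrays.

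All 8 tested genes of class II antigen presentation were lower, with a median of −1.61. Ciita, the class II transactivator, had signals of 288.2, 363.5, 129.8 and 127.3 on the bright arrays in the same order and of 492.4 to 1527 on dim ones (SE of the difference 0.35, adjusted p = 0.0038). H2-DMa, which helps to load peptides, gave 2081, 2441, 956.9 and 755.9 against 2833 to 9053 (−1.88, SE 0.35, adjusted p = 0.0043). No bright array reached the dim range for these 2 genes.

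Few genes of early and late B lineage stages passed the test. Of 6 tested pro-B and pre-B cell genes, 1 was higher, Bst1, a surface enzyme also made by myeloid cells (difference 1.73, SE 0.56, adjusted p = 0.0375, but 0.0509 to 0.109 without any 1 of the marginal arrays except marginal 2, or without transitional 1, 3 or 4). Bst1 passed the filter only through the bright arrays (adjusted p without the filter 0.0548). Il7r, the interleukin 7 receptor, differed by −1.73 (SE 0.65, adjusted p = 0.0651, but 0.0239 without marginal 3). Of 10 plasma cell genes, 1 was lower, Tnfrsf13b, the receptor TACI, with signals of 1846, 2285, 732.4 and 504.1 against 2975 to 5189 (−1.85, SE 0.36, adjusted p = 0.0050). Pdia4, an endoplasmic reticulum foldase, differed by −0.97 (SE 0.48, adjusted p = 0.15), with 0.21 within marginal and −2.18 within transitional lymphomas.

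**Figure D5:**
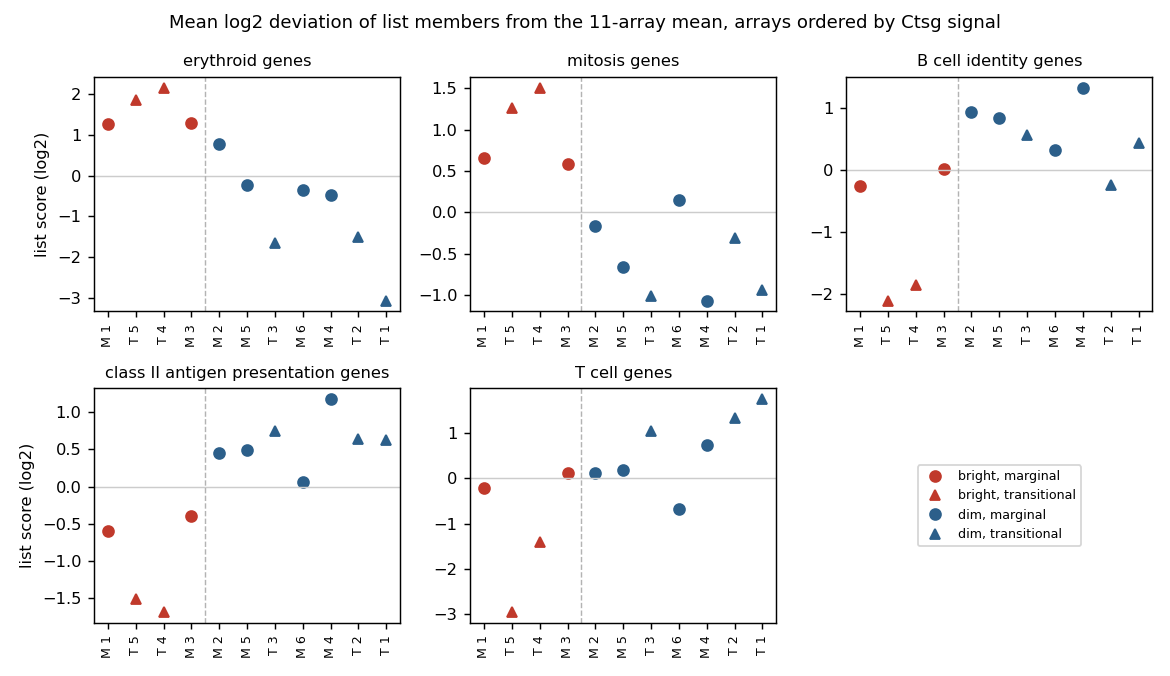
Score of 5 gene lists (mean log2 deviation of members from their 11-array means) on each array, ordered by Ctsg signal; red marks bright and blue dim arrays, circles marginal and triangles transitional lymphomas. Erythroid and mitosis scores are higher on every bright than on every dim array, class II scores are lower on every bright array, and B cell and T cell scores are lowest on transitional 4 and 5.

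Few genes of T and natural killer cells passed the test. Of 13 tested T cell genes, 1 was lower, with a median difference of 0.03 within marginal and −3.63 within transitional lymphomas. Cd3g, of the T cell receptor complex, had signals of 385.8, 1099, 212.8 and 23.9 on bright arrays and of 447.4 to 4036 on dim ones (difference −2.80, SE 0.76, adjusted p = 0.0188, but 0.061 without transitional 4 and 0.0587 without transitional 5). Cd3e, of the same complex, differed by −1.72 (SE 0.71, adjusted p = 0.0885, but 0.0413 without marginal 3 and 0.045 without marginal 6). Cd5, of T cells and B1 cells, differed by −1.97 (SE 0.72, adjusted p = 0.0576, but 0.0363 without marginal 3 and 0.013 without marginal 6). The count was 6 without marginal 3, 7 without marginal 6, and 0 without transitional 4 or 5. No T cell gene passed the test of the difference between classes (smallest adjusted p = 0.116). Of 10 natural killer and cytotoxic genes 3 were lower, 6 without marginal 6 and 0 without transitional 4 or 5. Eomes, a factor of cytotoxic cells, differed by −2.60 (SE 0.67, adjusted p = 0.0144), and the receptor Klrd1 by −1.52 (SE 0.41, adjusted p = 0.0176). Without transitional 4 or 5 their adjusted p was 0.0536 and 0.0552 for Eomes and 0.0677 and 0.070 for Klrd1. Eomes passed the filter only through the dim arrays (adjusted p without the filter 0.0205).

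Of 7 dendritic cell genes 2 were lower: Fscn1, an actin bundler, at −2.38 (SE 0.79, adjusted p = 0.0411) and Cd83, a maturation marker, at −1.43 (SE 0.46, adjusted p = 0.036). Fscn1 was lost without marginal 4 or any 1 transitional array (adjusted p 0.060 to 0.155). It passed the filter only through the dim arrays (adjusted p without the filter 0.0583). Cd83 was lost without marginal 1, 4, 5 or 6 or transitional 3 or 4 (adjusted p 0.0559 to 0.117), and was −0.86 without transitional 4. Of 5 stroma and endothelial genes, Pecam1, the adhesion molecule CD31, was lower (−1.65, SE 0.39, adjusted p = 0.0105), and Madcam1, an addressin, differed by −1.10 (SE 0.57, adjusted p = 0.167). Of 12 interferon response genes 3 were lower, and 5 without marginal 6. Rtp4 differed by −1.99 (SE 0.45, adjusted p = 0.0085) and Ifit3, which restrains viral RNA, by −1.85 (SE 0.27, adjusted p = 0.0022), each with all bright below all dim signals. Ifit3 passed the filter only through the dim arrays (adjusted p without the filter 0.0035).

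Immediate early genes were high on 2 bright arrays. Their score was 2.05 on marginal 1 and 1.66 on transitional 5, but −0.214 on marginal 3 and −0.436 on transitional 4, within the dim range of −1.22 to 0.253. Of 17 tested, 5 were higher, with 3 on leaving out marginal 1, 2, 4 or 5, 2 without transitional 5, and 7 without marginal 3. Dusp1, a phosphatase of MAP kinases, had signals of 13976, 3015, 3321 and 9919 against 464.1 to 3180 (difference 2.51, SE 0.54, adjusted p = 0.0075). Ier3, a stress-induced survival gene, gave 2448, 508.8, 1563 and 4653 against 142.5 to 797.8 (2.55, SE 0.54, adjusted p = 0.0069).

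Heat shock genes were highest on transitional 5, at a score of 1.90. Of 12 tested, 2 were higher, with 0 on leaving out transitional 4 or 5, 4 without marginal 3, and 3 without marginal 1 or transitional 1, 2 or 3. Hsp90aa1, the inducible HSP90, differed by 0.76 (SE 0.22, adjusted p = 0.0225), and Dnajb1, a cochaperone of HSP70, by 1.18 (SE 0.35, adjusted p = 0.0251). Without transitional 4 or 5 their adjusted p was 0.0603 and 0.0816 for Hsp90aa1 and 0.0511 and 0.071 for Dnajb1, whose difference was 0.74 without transitional 5.

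Brd2 itself, the mouse counterpart of the transgene, did not pass the test. Its signal was 3498, 2331, 1844 and 2077 on marginal 1, marginal 3, transitional 4 and transitional 5, and 2340 to 3504 (median 2763) on dim arrays (difference −0.25, SE 0.19, adjusted p = 0.349). Of 6 tested BET and partner genes 1 was higher, E2f1, a factor of cell cycle entry, with 427.4, 290.4, 858.2 and 659.9 against 99.7 to 389.3 (1.31, SE 0.38, adjusted p = 0.0258, but 0.105 without transitional 4 and 0.0846 without transitional 5). Crebbp, a histone acetyltransferase, differed by −0.66 (SE 0.40, adjusted p = 0.235).

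Outside the granulocyte lists, the 12 genes with the smallest p in each direction all had groups that did not overlap. Over all probe sets 6.64% had all bright above and 6.70% all bright below. These genes were picked by the p of the same comparison, so nothing is read from their lack of overlap. Ap3s1, a subunit of the AP-3 complex that sorts proteins to lysosome-related organelles, led the higher ones. Its signal was 5065, 3876, 3880 and 4087 on marginal 1, marginal 3, transitional 4 and transitional 5 and 1122 to 1699 (median 1183) on dim arrays (difference 1.64, SE 0.17, adjusted p = 0.00093). Rgcc, a regulator of the cell cycle, gave 973.4, 689.6, 785.8 and 883.1 against 102.9 to 319.3 (2.31, SE 0.26, adjusted p = 0.0013). Clec5a, a lectin receptor of myeloid cells, was even across the bright arrays, at 512, 423.3, 516.4 and 439.6 against 7.1 to 127.3 (2.95, SE 0.37, adjusted p = 0.0020). Prom1, the membrane protein CD133 of progenitor cells, gave 1129, 288.4, 547.2 and 278.5 against 8.1 to 59.8 (3.39, SE 0.42, adjusted p = 0.0020). Clec5a and Prom1 passed the filter only through the bright arrays, and the adjusted p of each without the filter was 0.0025.

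Stom, the red cell membrane protein stomatin, gave 1352, 1694, 2735 and 1965 against 124.2 to 541, a difference of 2.88. Eif2ak1, the haem-regulated kinase of translation, gave 1806, 2035, 3465 and 2476 against 611.5 to 945.9, a difference of 1.65. The others were Hacd1, of fatty acid elongation (2.84), Bag2, a cochaperone (2.18), Cdk1, described above, Dck, the deoxycytidine kinase (1.87), Dlgap5, of the spindle (1.85), and Hnrnpll, a splicing regulator (1.55). Adjusted p-values of the 12 ran up to 0.0020.

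Among the 12 lower genes, Clec2d, a ligand of natural killer receptors, had the widest difference. Its signals were 145.6 on marginal 1, 1118 on marginal 3, 156.4 on transitional 4 and 115.1 on transitional 5, against 2019 to 8366 on dim arrays (−3.78, SE 0.55, adjusted p = 0.0022). Fcrl1, an Fc receptor-like protein of B cells, gave 336.3, 336.8, 61.8 and 93.6 against 1298 to 2193 (−3.31, SE 0.38, adjusted p = 0.0016). Id3, an inhibitor of E proteins, gave 232.9, 335, 93.8 and 215.2 against 724.1 to 1177 (−2.08, SE 0.28, adjusted p = 0.0020). Irf5, an interferon regulatory factor, and Cd86, a costimulatory molecule, were lower by −2.06 and −1.83. The remaining genes were the p38 kinase Mapk11 (−2.10), Ifit3 (−1.85), the small GTPase Rab2b (−1.70), the ubiquitin ligase Rnf114 (−1.31), Dph5 (−1.27), Mif4gd (−1.24) and Rps15 (−0.85). Rps15, a ribosomal protein, combined the smallest difference with little spread, at 13076 to 17256 on bright and 24773 to 31312 on dim arrays.

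In the marginal class alone few transcripts separated marginal 1 and 3 from the 4 dim arrays. Of the 6 that were higher, 4 were the precursor genes Mpo, Prtn3, Ms4a3 and Elane, on which nothing rests here. The others were Ap3s1 (1.83, SE 0.23, adjusted p = 0.0185) and Lbp, the lipopolysaccharide binding protein (4.29, SE 0.58, adjusted p = 0.0269), whose differences in the transitional class were 1.42 and 2.39. Fcrl1 was lower (−2.41, SE 0.26, adjusted p = 0.0162), with −4.18 in the transitional class, beside 1 probe set without a single gene name. All 8 calls, these 3 genes included, were lost without marginal 1, 4 or 5. Lbp was named after its value was seen.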

How the data were processed

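RNA of 11 lymphomas was measured on Affymetrix expression arrays, 1 array each. Per the labels' protocols, biotin-labelled cRNA was made from total RNA by poly-dT priming. The deposited values are linear intensities. The submitters' processing notes name MAS5, with no version, and no further scaling was applied here. Of 22690 probe sets, 64 controls were left out. Genes came from GEO's platform annotation, updated to RefSeq (GRCm38.p6): 20380 probe sets had 1 gene, 691 several and 1555 none. The members and gene lists were chosen with earlier results of these data known.

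On log2(signal + 16), the upper 60% of probe sets by mean, without that of Ctsg (13575, covering 7739 genes), were compared between bright and dim arrays with limma 3.58.1 in R 4.3.3 (lmFit, eBayes with trend, two-sided, Benjamini-Hochberg adjusted p 0.05). A model of 4 means, class by bright or dim, gave differences within each class and between classes. Of 362 genes in 24 lists, 319 were on the array and 275 tested, each by its brightest probe set; of 82 list genes with several tested probe sets, 74 had all in 1 direction. Named by rule were all precursor genes on the array, the 4 widest differences of each later granulocyte list, the 12 smallest p in each direction, the 2 smallest p of each other list, Brd2 and defining cell type markers. Itgam was taken from the flow record. No 2 arrays held identical values, and no batch or scan record was used. The fit was tested on simulated data. Alternatives covered the offset, scaling, filter, eBayes trend, class, sample number and erythroid score as covariates, each class alone, and leaving out arrays.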

Additional observations from a re-analysis of the deposited data

Results flagged for a closer look

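Within the 4 bright or the 7 dim arrays, 1 array lay far from the others in 14 cases among the named genes and list scores, by a gap above Dixon's 95% critical value on the log2 scale. Chance alone gives such a gap in about 1 in 20 groups, and many groups were looked at. On bright arrays, marginal 1 had the highest Gfi1 (482) and Selp (313.2), marginal 3 the highest Clec2d (1118), and transitional 5 the highest Dnajb1 (9406) and the lowest Cpa3 (28.6). On dim arrays, transitional 2 had the highest Bst1 (256.2) and Madcam1 (673.9), the lowest Serpinb1a (575.8) and the highest stroma and endothelial score (2.31). Transitional 1 had the highest Il7r (2488), transitional 3 the lowest Mcm2 (897.5), and marginal 2 the highest Prg2 (613). Marginal 6 had the lowest Cpa3 (1.4) and the lowest dendritic cell score (−0.581). The difference of Creld2 between bright and dim arrays was not the same in both classes, by a tested −3.56 (transitional minus marginal, limma adjusted p = 0.0488), which was lost with an offset of 1, without the eBayes trend, with the replicate block, with the erythroid score, and without marginal 2, 3, 5 or 6 or transitional 1, 2, 4 or 5.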

How the results depend on the processing

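Over all probe sets, 1555 were higher and 2051 lower. These counts stayed within 1.5 times with the other offsets, quantile normalization, no filter, the upper 40%, no trend and class as a covariate, except that median scaling gave 1192 lower. With an erythroid score term they were 0 and 0 (1376 at an unadjusted p under 0.05 in limma). That fit can hardly separate the score from the cut, as it was higher on every bright than on every dim array. They were 4 and 1 in marginal and 1657 and 2537 in transitional arrays alone, and 11 and 4 without transitional 4 and 5, which was added once values had been seen. Leaving out each array gave 809 to 1620 higher and 647 to 2328 lower. The labels do not say that sample numbers pair the classes. The correlation of deviations was −0.24 to 0.18 over 5 numbers, which cannot exclude a pairing. With the replicate block 1353 were higher and 1440 lower, of which 1225 and 1261 were shared. Within marginal lymphomas 8 probe sets passed, 19 with an offset of 64, 0 with the block (1207 at an unadjusted p under 0.05) and 0 with the erythroid score (527), and 0 to 213 on leaving out 1 array, the most without marginal 2. Within transitional lymphomas 1596 were higher and 2405 lower, 2455 and 1246 with median scaling, 579 and 571 with the block, 0 and 0 with the erythroid score (656 at an unadjusted p under 0.05), and 892 to 1698 and 901 to 2569 on leaving out 1 array. The difference between classes passed for 1 probe set, 0 with an offset of 1, without trend, with the block or with the erythroid score (677 to 2225 at an unadjusted p under 0.05), 2 with an offset of 64, 5 with quantile normalization, 7 with median scaling, and 0 to 2 on leaving out 1 array. Of list members 83 were higher and 36 lower, 0 and 0 with the erythroid score, in marginal arrays alone and without transitional 4 and 5, 58 lower in transitional arrays alone, and 60 to 86 and 18 to 45 on leaving out 1 array. Directions turned for Brd2 (0.002 in marginal arrays alone, 0.022 without transitional 4 and 5), C1qa (0.501 with the block, −0.860 to 0.107 on leaving out 1 array, the last without transitional 2), Cd3e (0.058 with the erythroid score, 0.013 in marginal arrays), Crebbp (0.004 without transitional 4 and 5), Gp9 (−0.067 with the erythroid score), Pdia4 (0.099, 0.210 and 0.086 with that score, in marginal arrays and without transitional 4 and 5) and the pro-B and pre-B median (−0.485; 0.005 by gene means over probe sets, and 0.454, 0.271 and 0.137 with the erythroid score, in marginal arrays alone and without transitional 4 and 5). In the last 3 settings, in that order, the plasma cell median (−0.338) became 1.08, 0.950 and 0.615, and that of T cell genes (−1.81) became 0.058, 0.034 and −0.568. NADPH oxidase genes (−0.391) had medians of 0.188 and 0.216 and dendritic cell genes (−0.672) of 0.039 and 0.026 in the last 2, and interferon genes (−0.503) of 0.039 in marginal arrays alone. The BET median (−0.093) became 0.070 with median scaling and 0.078 without transitional 4 and 5. The cause was not tested. Fewer arrays leave fewer degrees of freedom in the settings that leave arrays out.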
